A study of Solanum lycopersicum with 12 samples.

Results

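The 100 genes described here were those whose RNA lay low in sections from the first stages of lateral root formation in tomato. These genes were higher in control sections without lateral roots and in sections from stages 4 and 5. They were chosen from 34027 genes by a trough depth, the lowest of the control, stage 4 and stage 5 means minus the higher of the stage 1 and stage 2 means. The means were taken on the log2(CPM + 1) scale, where CPM is the estimated read count scaled to a library total of 1000000. Genes needed a mean control level of at least 5 CPM, which 13562 genes had, and 1647 of these had a trough depth above 0. The 100 with the largest values were kept. The levels in those 5 groups therefore chose the genes and are given as a description, while stage 3 did not enter the choice.

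All sections came from M82 seedlings grown on agar plates and carrying DR5::VENUSx3-NLS, a nuclear fluorescent reporter under the synthetic auxin-responsive promoter DR5. The control was a piece of primary root from the differentiation zone without lateral roots. Sections held a lateral root with a pair of DR5-positive cells at stage 1, one at its first periclinal division at stage 2, and one passing the endodermis at stage 3. At stage 4 the primordium stood in the middle of the cortex, and at stage 5 it touched the epidermis but had not emerged. Each group had 2 libraries, and whether these came from separate plants is not given in the labels, so p-values measure the spread between these libraries, which may be technical.

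A lateral root starts in the pericycle, the cell layer inside the endodermis, where auxin response marks founder cells that then divide. The primordium grows outwards through the endodermis, cortex and epidermis of the parent root, and these layers change as it passes. A section holds mostly parent root at the early stages, so its RNA reports the surrounding tissue as well as the primordium. In such bulk sections, fewer cells of a type and less RNA per cell cannot be told apart. The genes are known here by locus tag alone: no tag matched the reference gene table (0 of 34027), so no gene is given a name or role, and cell type markers could not be read.

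Library totals ran from 1948144 to 6196272 counts, and 3 counts, the floor used for detection, corresponded to between 0.484 and 1.54 CPM. The stage 1 libraries were the deepest, and the second libraries of the control and of stage 5 the shallowest. Libraries made by priming at the poly(A) tail give about 1 read site per transcript, so levels were not divided by length and are compared only within a gene.

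The median member stood at 3.96 and 4.87 log2(CPM + 1) in the control libraries. Stage 1 libraries had medians of 2.24 and 2.41, and those of stage 2 had 2.82 and 3.15. From there the median returned to 3.71 and 4.32 (stage 3), 4.40 and 4.12 (stage 4), then 4.46 and 4.62 (stage 5). Over all 13562 genes meeting the control minimum, the median stayed between 4.36 and 4.64 in the 12 libraries. The summed level of the 100 genes was 5356 and 9944 CPM in the control, 1531 and 2061 at stage 1, 2363 and 2986 at stage 2, then 8273 and 7687 at stage 5.

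**Figure D1:**
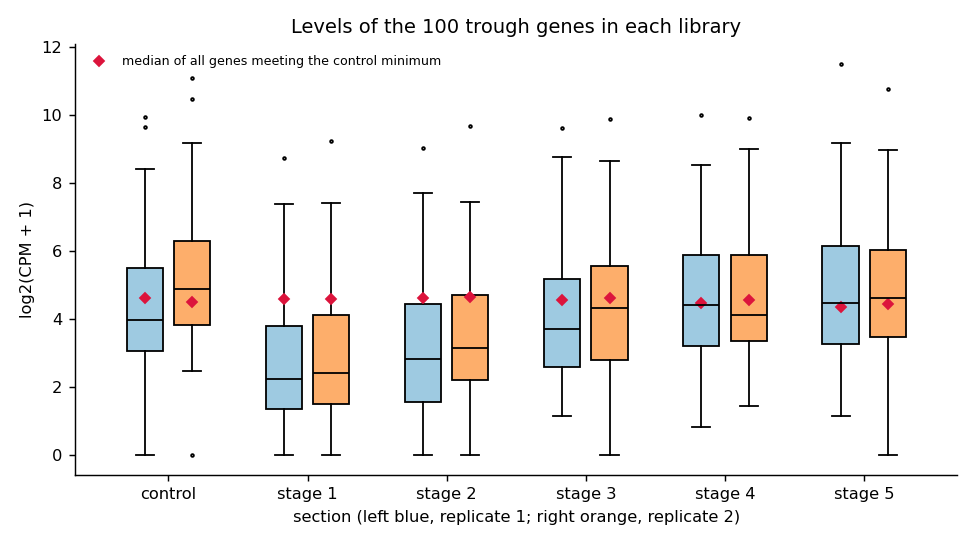
Boxes show log2(CPM + 1) of the 100 trough genes in each of the 12 libraries (line, median; box, quartiles; whiskers, to 1.5 times the box height; dots, genes beyond). Diamonds mark the median of all 13562 genes meeting the control minimum, which stayed between 4.36 and 4.64 while the median trough gene was at 2.24 and 2.41 in the stage 1 libraries.

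Trough depth ran from 3.15 to 0.591 log2 units with a median of 0.82; 5 genes reached 2 and 32 reached 1. The last genes inside the limit were Solyc06g074580, Solyc04g015590 and Solyc04g055140, at 0.593, 0.593 and 0.591. The first genes outside it were Solyc10g086530, Solyc05g052350 and Solyc03g007420, at 0.588, 0.588 and 0.585, so the limit falls within a continuous range. In 63 of the 100 genes, all 6 control, stage 4 and stage 5 libraries lay above all 4 stage 1 and stage 2 libraries, against 2.59% of the genes meeting the control minimum; the rule used these values. The other 37 genes hold at least 1 library that crosses the trough.

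Solyc05g054090 had the deepest trough. It was at 68.4 and 187 CPM in the control, 7.1 and 18.9 at stage 1, 15.8 and 7.32 at stage 2, 123 and 107 at stage 3, 85.1 and 147 at stage 4, then 118 and 145 at stage 5. The 4 trough libraries were at 18.9 CPM or less and the others at 68.4 CPM or more, so they did not overlap, and stage 3 was already among the high libraries. Solyc12g040790, ninth by trough depth, was at 84 and 137 CPM in the control, 13.2 and 8.26 at stage 1, 27.7 and 31.8 at stage 2, 65.2 and 128 at stage 3, 112 and 77.8 at stage 4, then 89 and 124 at stage 5. Both stage 2 libraries of this gene lay above both stage 1 libraries and below every later one. Solyc06g005465 was one of the most abundant genes, at 794 and 1411 CPM in the control, 48.1 and 78.4 at stage 1, 207 and 105 at stage 2, 432 and 399 at stage 3, 246 and 510 at stage 4, then 253 and 501 at stage 5. Its lowest libraries were those of stage 1, and it returned to an intermediate level, below both control libraries at every later stage.

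**Figure D2:**
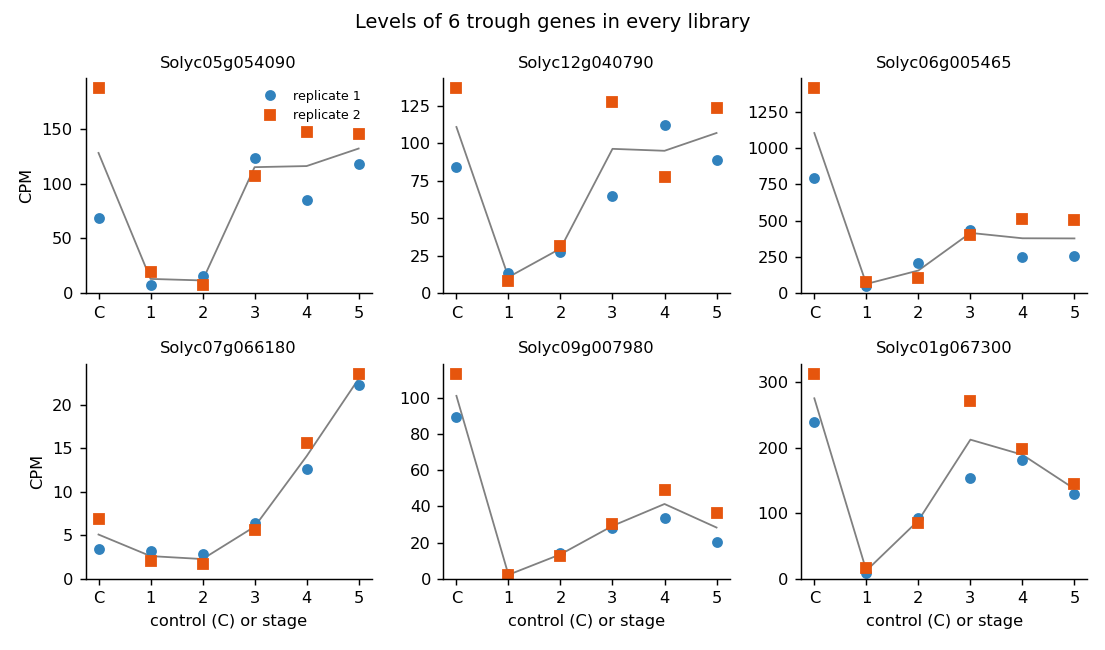
CPM of 6 trough genes in every library on linear axes starting at 0; circles are replicate 1, squares replicate 2, and the line joins the means. Solyc05g054090 and Solyc12g040790 return to near the control range at stage 3, Solyc06g005465, Solyc09g007980 and Solyc01g067300 stay below the control at stage 5, and Solyc07g066180 reaches 22.3 and 23.6 CPM at stage 5, above its control libraries at 3.37 and 6.82.

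Several genes near the top of the ranking rested on libraries that disagreed. Solyc00g500125, second by trough depth, was at 55.5 CPM in control replicate 1 and listed at 0 in control replicate 2, at 0 in all 4 stage 1 and stage 2 libraries, and between 25.3 and 110 CPM in the 6 later libraries. Solyc11g063573, the third, was listed at 0 in control replicate 1 and at 21.4 CPM in replicate 2, at 0 in the 4 trough libraries and in 1 stage 3 library, and between 10.2 and 17.3 CPM in the others. Solyc00g500157, the seventh, was at 31.7 and 0 CPM at stage 1 and at 0 and 65.1 CPM at stage 2, so 2 of its trough libraries lay among its high ones. All 3 had fractional counts, in 7, 6 and 10 libraries. Fractional counts arise when a read is divided among genes that it matches equally well, so these levels, zeros included, are uncertain.

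Solyc01g067850 was at 8.18 and 17.4 CPM in the control, 0.323 and 0.665 at stage 1, 4.09 and 0.563 at stage 2, 6 and 11.5 at stage 3, 21.7 and 13.7 at stage 4, then 16.1 and 28.2 at stage 5. All its counts were whole, and its trough and high libraries did not overlap. It had 2 and 4 counts at stage 1 and 23 and 2 at stage 2. The trough thus rested partly on counts under the floor of 3, with stage 2 duplicates that disagreed. Solyc09g092470 was at 34.2 and 49.2 CPM in the control, 0.161 and 0.332 at stage 1, 18.8 and 4.23 at stage 2, 13 and 56.3 at stage 3, 125 and 55.6 at stage 4, then 63.5 and 53.4 at stage 5. Here the stage 1 libraries lay under the detection floor and the duplicates of stages 2, 3 and 4 differed by more than 2-fold. Solyc07g053890 was at 15.4 and 28.8 CPM in the control and 1.61 and 0.997 at stage 1, with stage 5 at 10.7 and 30.3. Solyc09g005400 and Solyc09g014525 had wide duplicates at stage 4, at 364 and 145 CPM and at 136 and 25.1 CPM, and fractional counts in 10 libraries and in 1.

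Stage 3 was the group that the choice of genes did not use. Its level was placed between the trough, set to 0, and the lowest of the control, stage 4 and stage 5 means, set to 1, on the log2(CPM + 1) scale. The median position was 0.83, with quartiles of 0.55 and 1.12 and a range from -0.01 to 1.93. One gene lay below 0, 21 between 0 and 0.5, 42 between 0.5 and 1, 24 between 1 and 1.5, and 12 at 1.5 or above. With stage 3 replicate 1 alone the median was 0.74 and with replicate 2 alone it was 1.04, so the duplicates differed in how far the genes had returned.

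**Figure D3:**
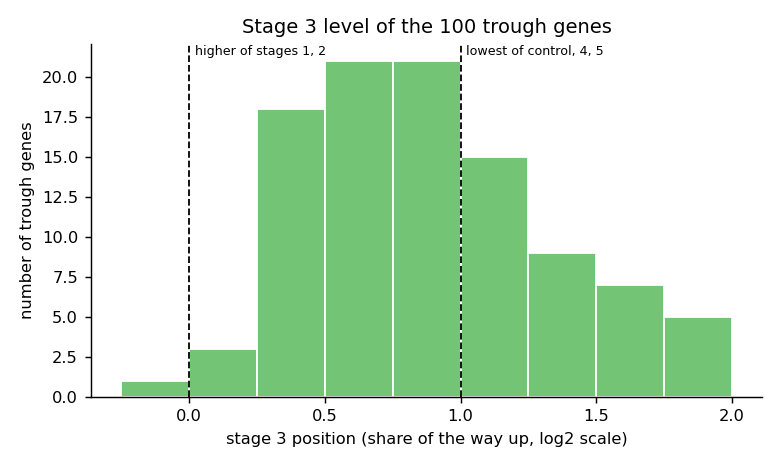
Histogram of the stage 3 position of the 100 trough genes in steps of 0.25, on the log2(CPM + 1) scale; dashed lines mark the trough (0) and the lowest of the control, stage 4 and stage 5 means (1). The median is 0.83 and the range -0.01 to 1.93.

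Both stage 3 libraries lay above all 4 stage 1 and stage 2 libraries in 55 of the 100 genes, against 23% of the genes meeting the control minimum. Both lay below all 6 control, stage 4 and stage 5 libraries in 10, against 1.4%. The stage 3 mean was above the stage 2 mean in 99 genes and above the stage 1 mean in 100, where 46.1% and 52.3% of all genes meeting the control minimum were. It was below the control mean in 83 genes and below the stage 4 mean in 87, against 56.1% and 44%. One side of each of these differences was chosen to be low or high, which pulls the counts in the direction seen. The genes they are set beside were also chosen, for a control mean of at least 5 CPM, which itself favours a high control: the median stage 3 against control log2 change was -0.07 over those of them that were tested and 0.02 over all tested genes.

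The highest stage 3 positions belonged to Solyc01g067300 (1.93), Solyc02g079800 (1.87) and Solyc09g091510 (1.87). Solyc01g067300 was at 239 and 312 CPM in the control, 8.88 and 15.9 at stage 1, 92.3 and 85.4 at stage 2, 153 and 271 at stage 3, 181 and 197 at stage 4, then 129 and 144 at stage 5. Its stage 1 libraries stood apart from the rest, and all 4 libraries of stages 3 and 4 lay above both of stage 5. Solyc02g079800 was at 12.8 and 8.71 CPM in the control, 0.484 and 0.831 at stage 1, 4.62 and 1.69 at stage 2, then 13.4 and 14.8 at stage 3, where it exceeded every other library. Solyc09g091510 was at 8.48 and 19.9 CPM at stage 3, with stage 2 duplicates at 1.07 and 10.1 CPM that overlapped the high libraries.

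The lowest positions belonged to Solyc09g015450 (-0.01), Solyc06g084050 (0.01) and Solyc05g050540 (0.09). Solyc09g015450 was at 4.34 and 2.68 CPM at stage 3, within its stage 2 values of 4.62 and 2.54. Solyc06g084050 was at 1.24 and 7.09 CPM and Solyc05g050540 at 1.65 and 8.43 CPM at stage 3, so replicate 1 lay in the trough and replicate 2 above it. The control libraries of these genes lay between 6.44 and 15.1 CPM.

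Tests were run on all 18357 genes that passed the filter on low counts, with edgeR's quasi-likelihood test and adjustment over all of them, and genes with an adjusted p under 0.05 were called. All 100 members passed the filter. Against stage 2, 5 members were called higher at stage 3 and 0 lower, where 2.57% of all tested genes were called higher and 1.17% lower. They were Solyc05g054090 (log2 change 3.28 ± 0.56 SE, adjusted p = 0.0154 by edgeR), Solyc12g040790, Solyc02g079800, Solyc01g111310 and Solyc01g067300. Against stage 1, 33 members were called higher at stage 3 and 0 lower, against 6.49% and 6.38% of all tested genes. Because low stage 1 and stage 2 levels chose the members, these shares are a description. None of the 5 calls against stage 2 was kept without either stage 2 library or without either stage 3 library. In those settings fewer of all tested genes were called too. More members and more of all tested genes were called without either control library. The control libraries enter this contrast only through the shared scaling, filter and spread. Fewer than 33 members were called against stage 1 without either stage 1 library or without either stage 3 library, as were fewer of all tested genes.

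Stage 3 was called lower than the control for 8 members and higher for 0, against 3.26% and 13% of all tested genes. The clearest was Solyc09g007980, at 28.3 and 30.1 CPM at stage 3 against 89.5 and 113 in the control (log2 change -1.75 ± 0.28 SE, adjusted p = 0.00105 by edgeR). In both directions together, the 8 calls stood against 16.3% of all tested genes, and without a filter there were 29, all lower, against 15.1%. More than 8 members, nearly all lower, were called without control replicate 1, while the share of all tested genes called was slightly smaller. Fewer were called without control replicate 2, without either stage 1 library or without either stage 3 library, as were fewer of all tested genes. No member was called between stage 3 and stage 4 by edgeR (0 of 100, against 0.0872% of all tested genes), while 8 had an unadjusted p under 0.05, near the 9.91% of all tested genes, and DESeq2 also called 0.

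The control, stage 4 and stage 5 levels were all chosen to be high. This leaves the sign of the difference between stages 4 and 5 free, but the control alone had to reach 5 CPM, so genes could enter through a high control and the counts against the control are a description. The highest mean was at stage 5 in 46 genes, in the control in 39, at stage 4 in 14 and at stage 3 in 1. The lowest of the 3 high groups was stage 5 in 34 genes, stage 4 in 33 and the control in 33. The members thus had no common order of the high groups.

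Against the control, 14 members were called higher and 12 lower at stage 5, 26 in all, where 46.2% of all tested genes were called (24.4% higher and 21.8% lower). Without a filter on low counts 47 members were called (28 higher and 19 lower), against 34.8% of all genes then tested, so whether the members' share lay below or above that of all genes depended on the filter. Genes called higher were led by Solyc07g066180, which was at 3.37 and 6.82 CPM in the control, 3.23 and 1.99 at stage 1, 2.84 and 1.69 at stage 2, 6.41 and 5.56 at stage 3, 12.6 and 15.6 at stage 4, then 22.3 and 23.6 at stage 5. Its trough was shallow, with all its libraries below the lower control library, and stage 3 lay within the control range. The stage 4 and stage 5 libraries rose past both control libraries (log2 change at stage 5 2.35 ± 0.40 SE, adjusted p = 0.000595 by edgeR). Solyc05g018810 was at 71.7 and 128 CPM in the control and 256 and 222 at stage 5 (1.38 ± 0.28 SE, adjusted p = 0.00169), and it had fractional counts in 10 libraries. Solyc10g083640 was at 63.3 and 105 CPM in the control and 167 and 171 at stage 5 (1.13 ± 0.24 SE, adjusted p = 0.00268). In all 3 genes both stage 5 libraries lay above both control libraries.

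Genes called lower at stage 5 were led by Solyc09g007980, which was at 89.5 and 113 CPM in the control, 2.58 and 1.83 at stage 1, 14.2 and 12.7 at stage 2, 28.3 and 30.1 at stage 3, 33.5 and 49.2 at stage 4, then 20.1 and 36.4 at stage 5. Its mean was higher at each step from stage 1 to stage 4 and lower again at stage 5, and every stage lay below both control libraries (log2 change at stage 5 -1.76 ± 0.30 SE, adjusted p = 0.000511 by edgeR). Solyc03g080100 was at 58.7 and 83.3 CPM in the control, 7.1 and 5.15 at stage 1 and 17.4 and 25.2 at stage 5 (-1.64 ± 0.35 SE, adjusted p = 0.00256). Solyc06g036110 was at 55.8 and 170 CPM in the control, 3.71 and 4.15 at stage 1 and 20.6 and 30.8 at stage 5 (-2.05 ± 0.52 SE, adjusted p = 0.00694). Its call was lost without control replicate 2 (-0.98, adjusted p = 0.0994) and without stage 5 replicate 1 (-1.79, adjusted p = 0.0714). Fewer than 26 members were called without stage 5 replicate 1 or without control replicate 1, as were fewer of all tested genes. Most members called were lower without control replicate 1 and higher without control replicate 2, so the balance of directions depended on which control library was used. The 12 lower calls include Solyc12g088970, Solyc01g094910 and Solyc11g045520, named after their values were seen, whose control libraries were at 1.93 and 44.7, 1.68 and 37.5, and 5.05 and 37.1 CPM.

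Between stage 4 and stage 5, 0 of the 100 members were called by edgeR, as were 0% of all tested genes. An unadjusted p under 0.05 was found for 12 members, against 17.6% of all tested genes. DESeq2 called 7, all higher at stage 5, against 3.02% of all genes. This share and those that follow hold calls in both directions together. Without control replicate 1, edgeR called 6, all higher, against 1.76%, and without control replicate 2 it also called 6, all higher, against 1.95%.

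Stages 1 and 2 were both chosen to be low. The rule does not set the sign of their difference, but it used both levels, so the values here are a description. Over all tested genes, calls lower than the control were also more common at stage 1 (3.31%) than at stage 2 (0.741%). Stage 2 was the higher of the pair in 72 members and the lower in 25 by the edgeR log2 change, while 3 were at 0 counts in all 4 libraries. Over all tested genes 47.3% were higher at stage 2. The median log2 change from stage 1 to stage 2 was 0.50 for the members and -0.02 for all tested genes. The mean of log2(CPM + 1) scaled to library totals gave 79 members higher at stage 2, against 57.2% of the genes meeting the control minimum.

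The stage 2 level was called higher than stage 1 for 5 members and lower for 0, against 0.12% and 0.158% of all tested genes. Solyc08g006020 had 0 counts in both stage 1 libraries and 36 and 28 counts, or 6.4 and 7.89 CPM, at stage 2, where its mean was at least 14.5-fold higher than the floor of 3 counts per stage 1 library (adjusted p = 0.0126 by edgeR). Its control libraries were at 16.1 and 9.47 CPM and its stage 4 libraries at 29.3 and 21. Solyc03g118940 also had 0 counts in both stage 1 libraries and had 23 and 5 counts at stage 2, at least 5.6-fold above that floor (adjusted p = 0.0416 by edgeR). Solyc06g053520 had 0 counts and 1 count at stage 1 and 112 and 39 at stage 2, a ratio of 201 with an exact 95% counting interval from 35.5 to 7993 (adjusted p = 0.0126 by edgeR). In these genes the stage 1 libraries were the only ones with 3 counts or fewer.

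The other pair was detected at stage 1. Solyc01g067300 went from 8.88 and 15.9 CPM to 92.3 and 85.4 (log2 change 2.78 ± 0.32 SE, adjusted p = 0.00553 by edgeR). Solyc09g007980 went from 2.58 and 1.83 CPM to 14.2 and 12.7 (2.53 ± 0.37 SE, adjusted p = 0.0161). In all 5 genes both stage 2 libraries lay above both stage 1 libraries. The rule used the levels of both stages, so the count of 5 is a description. Leaving out any stage 1 or stage 2 library gave fewer calls among the members and among all tested genes. Without stage 1 replicate 1 no member was called.

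**Figure D4:**
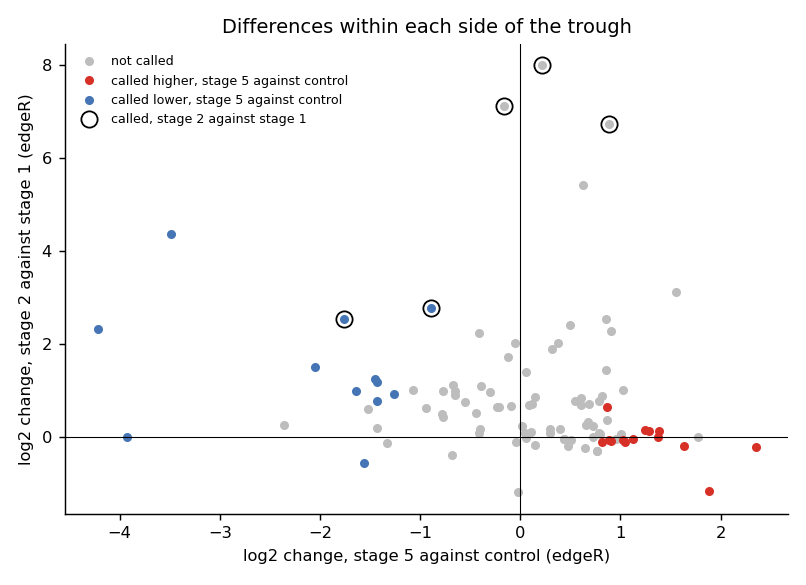
Each point is a trough gene, with its edgeR log2 change from the control to stage 5 on the x axis and from stage 1 to stage 2 on the y axis; red and blue mark the 14 genes called higher and the 12 called lower at stage 5 than in the control, and rings mark the 5 genes called between stages 1 and 2. All 5 ringed genes lie above 0 on the y axis, and values of genes at 0 counts at stage 1 depend on the prior count of the fit.

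The contrasts that chose the genes gave 57 members called lower at stage 1 than in the control, where 3.31% of all tested genes were, and 26 called lower at stage 2, where 0.741% were. Nothing is read from these counts. They share the control libraries with each other and with the contrasts of stages 3 and 5 against the control.

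Duplicates allow the pattern to be looked at in libraries that did not choose the genes. The rule was applied to replicate 1 alone, and the 100 genes found were followed in replicate 2. Their median trough depth went from 0.94 to -0.06, and 45 of them had a depth above 0 in replicate 2, against 11.3% of the genes meeting the control minimum in replicate 1. Chosen in replicate 2 and followed in replicate 1, the median went from 0.95 to -0.01 and 49 of 100 had a depth above 0, against 11%. At least 0.5 log2 units were kept by 24 and 21 genes, against 1.39% and 1.47%. Most genes picked from 1 replicate series therefore showed no trough in the other, although more did so than among all genes. These sets shared 44 and 41 genes with the 100 members. Of the members themselves, which were chosen on both series, 83 had a depth above 0 in each, against 4.42% of the genes meeting the control minimum.

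The duplicates of the control differed for these genes in a common direction. Control replicate 2 was above replicate 1 in 85 members, with a median difference of 0.70 log2 units, while 44.8% of the genes meeting the control minimum were above, with a median of -0.07. Replicate 2 was the shallower control library, with 2641164 counts against 4154467. At least a 4-fold excess in control replicate 2 was found in 7 members, against 0.177% of the genes meeting the control minimum. Solyc12g088970, named after its values were seen, was at 1.93 and 44.7 CPM in the control and at 3.52 CPM or less in every other library. Solyc01g094910, chosen in the same way, was at 1.68 and 37.5 CPM in the control and at 4.07 CPM or less elsewhere. For such genes a single control library set the control mean. Replicate 2 was also the higher in 66 members at stage 1, 64 at stage 2 and 69 at stage 3, against 50.4%, 52.2% and 54.7% of the genes meeting the control minimum. At stages 4 and 5 it was the higher in 55 and 56 members, near the 57.9% and 54.7% of those genes. The part of depth or of the sections in this was not tested. With the control mean taken from replicate 1 alone, 70 of the 100 genes were chosen again, and 70 with replicate 2 alone.

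**Figure D5:**
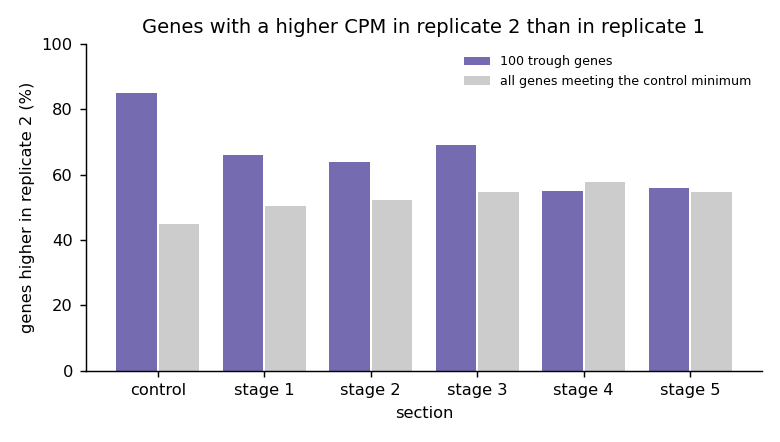
Bars show the percentage of genes with a higher CPM in replicate 2 than in replicate 1 of the same group, for the 100 trough genes and for all 13562 genes meeting the control minimum. The largest gap is in the control, where 85 of the trough genes and 44.8% of all those genes are higher in replicate 2.

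What the members shared beyond the rule was read from their tags and counts. By the tomato tag scheme, which numbers genes along each chromosome and keeps a separate series for sequence placed on none, 14 of the 100 members belonged to unplaced sequence, against 129 of 13562 genes (0.951%) meeting the control minimum. Fractional counts occurred in at least 1 library for 36 members, against 16.6% of those genes, and in at least 10 libraries for 18, against 6.13%. Of the 14 unplaced members, 12 had fractional counts, close to the 118 of 129 among all unplaced genes meeting the minimum. The chromosome series with the most members were those of chromosomes 6 and 9, with 11 each (8.9% and 7.09% of the genes meeting the minimum), and chromosome 8 had the fewest, with 2 (7.15%).

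The unplaced members ranged from 5.81 to 228 CPM in the control mean, and 12 of 14 were higher in control replicate 2. Solyc00g500055, with whole counts, was at 91.5 and 301 CPM in the control, 21.3 and 38.4 at stage 1, 39.7 and 63.1 at stage 2, 76.3 and 99.7 at stage 3, 105 and 205 at stage 4, then 199 and 197 at stage 5. Its trough libraries were all below its others. Solyc00g500206 was at 116 and 340 CPM in the control, 27.6 and 41.5 at stage 1, 48.9 and 95.2 at stage 2, then 135 and 114 at stage 5, with fractional counts in all 12 libraries. Solyc00g500208, with a neighbouring tag, was at 172 and 250 CPM in the control, 42.8 and 52.3 at stage 1, 60.1 and 108 at stage 2, then 138 and 126 at stage 5. In all 3 genes the higher stage 2 library was replicate 2. Solyc00g500030 and Solyc00g500075 had identical estimated counts in all 12 libraries, so they are not separate observations and the 100 members hold 99 distinct profiles.

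Members on placed chromosomes included a single pair with tags within 50 of each other, Solyc10g017930 and Solyc10g017950, both with fractional counts in all 12 libraries. They were at 16 and 26.8 CPM and at 5.89 and 4.51 CPM in the control, and at 4.58 and 9.43 and at 1.87 and 1.96 CPM at stage 1. The remaining unplaced members with neighbouring tags were Solyc00g500021, Solyc00g500027, Solyc00g500051, Solyc00g500052, Solyc00g500183 and Solyc00g500196, at between 1.39 and 95.5 CPM in the libraries where they were above 0, and tag order on unplaced sequence gives no position.

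The most abundant member, Solyc04g082980, was at 973 and 2147 CPM in the control, 420 and 596 at stage 1, 517 and 812 at stage 2, 785 and 944 at stage 3, 1017 and 966 at stage 4, then 2900 and 1742 at stage 5. Solyc11g044640 was at 187 and 444, 87.8 and 128, 100 and 171, 143 and 209, 218 and 190, and 574 and 344 CPM in the same order. The ratio of Solyc04g082980 to Solyc11g044640 stayed between 4.52 and 5.5 in the 12 libraries (median 4.94). Among the 861 pairs of the 42 members above 5 CPM in every library, it was the steadiest apart from the pair with identical counts. Solyc04g082980 and Solyc11g044640 both had fractional counts in 11 libraries, and moved together between duplicates as well as between stages. Whether they share reads was not tested. Solyc06g035760, with whole counts, was at 337 and 576 CPM in the control, 68.3 and 75.6 at stage 1, 162 and 164 at stage 2, 128 and 313 at stage 3, 301 and 264 at stage 4, then 167 and 368 at stage 5. Solyc03g044330, with fractional counts in all 12 libraries, had a shallow trough, at 214 and 339 CPM in the control, 165 and 168 at stage 1, 167 and 172 at stage 2, then 341 and 353 at stage 5.

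The 64 members with whole counts in every library were set beside the 36 with fractional counts. All 6 high libraries lay above all 4 trough libraries in 46 of the 64 and in 17 of the 36. Median trough depth was 0.83 and 0.81, and median stage 3 position 0.90 and 0.76. All 5 calls between stages 1 and 2 were among the 64, as were 11 of the 14 higher and 10 of the 12 lower calls for stage 5 against the control. The matching shares over all genes with whole or with fractional counts are not given here, so nothing is read from this split.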

How the data were processed

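The authors deposited a table of estimated counts per gene (expected counts) with 1 column per library; Salmon 1.3.0 and DESeq2 are named in the submitters' processing notes, without their roles. Per the labels' protocols, library preparation followed Lexogen's 3′ QuantSeq method. Genome build, annotation and strand setting are not given in the sources used here. Of the deposited values, 5.64% were not whole (tolerance 1e-06). No molecular identifiers are mentioned, so floors and intervals cover counting error only.

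Columns were matched to samples by their labels. The rule used unrounded counts scaled to column totals (CPM) and log2(CPM + 1). For tests, counts were rounded, filtered with filterByExpr by stage (18357 genes kept), scaled by TMM and fitted by quasi-likelihood (glmQLFit and glmQLFTest of edgeR 4.0.16, with limma 3.58.1 under R 4.3.3) in 1 model of stage over all 12 libraries, with 6 residual degrees of freedom. p-values were adjusted by Benjamini-Hochberg over all tested genes within each of 9 comparisons. The standard error was the log2 change divided by the square root of F. Simulated counts for stage 5 against control (17916 genes) gave back 93% of 100 genes changed by 2 log2 units and 27% of 100 changed by 1, with 5 false calls. The changed genes had a mean above 5 CPM and a spread set by the trend over all genes. Far fewer genes were changed than were called in the data, so these rates need not hold for the members.

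Members and lists were chosen with earlier results of these data known. Named genes were the 10 with the deepest trough, 3 on each side of the limit, 3 per direction for stage 5 against control, 3 at each end of stage 3 position, the 5 most abundant in the control and those with tags within 50. Lists of functions and cell type markers by gene description could not be applied, since no tag matched. Alternatives covered scaling, test, filter, pseudocount, control minimum, replicate block and each library left out.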

Additional observations from a re-analysis of the deposited data

Results flagged for a closer look

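Of the trough genes, 5 were called between stages 1 and 2 by edgeR's quasi-likelihood test at an adjusted p under 0.05, where 0.278% of all tested genes were called. The rule had chosen both stages to be low, so the count is a description. Fewer members were called when any stage 1 or stage 2 library was left out, as were fewer of all tested genes. No member was called without stage 1 replicate 1. The fitted log2 changes were 2.78 for Solyc01g067300 and 2.53 for Solyc09g007980. They were 8.00 for Solyc08g006020, 6.73 for Solyc03g118940 and 7.12 for Solyc06g053520. The last 3 had 0 or 1 count in the stage 1 libraries, so these fitted values depend on the prior count of the fit and are no measure of size. All 5 had whole counts, and in each both stage 2 libraries lay above both stage 1 libraries. The stage 1 libraries were the deepest of the series. With 2 libraries per group, single outlying libraries could not be tested for.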

How the results depend on the processing

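Counts of members called depended on single libraries and on the filter. Leaving out 1 library at a time gave 7 to 28 calls for stage 5 against control, 0 to 6 between stages 4 and 5, 0 to 6 between stages 1 and 2, 0 to 15 between stages 2 and 3 and 17 to 44 between stages 1 and 3. It gave 1 to 25 for stage 3 against control, 0 throughout between stages 3 and 4, 28 to 69 for stage 1 against control and 6 to 52 for stage 2 against control. In the same order of comparisons, the absence of a filter gave 47, 12, 23, 39, 58, 29 and 12 calls, and 70 for stage 2 against control, where 34.8, 5.52, 2.03, 6.79, 12.8, 15.1, 2.92 and 8.87% of all genes then tested were called. DESeq2's own test called 7 members between stages 4 and 5, 8 between stages 1 and 2, 11 between stages 2 and 3, and 14 and 43 for stages 3 and 2 against control. Its shares of all tested genes were 3.02, 0.817, 5.25, 16.2 and 6.51%. Only the libraries compared gave 16 for stage 5 against control, 22 and 52 for stage 3 against stages 2 and 1, and 5 and 15 for stages 3 and 2 against control. There, 34.9, 10.8, 23, 12.8 and 1.78% of all genes then tested were called. With 10 counts required in every library, 60 members were left, of which 2 were called between stages 1 and 2, and 35 between control and stage 1. Of all genes then tested, 0.102 and 13.1% were called. Among members with whole counts, chosen after seeing the data, 5 were called for stage 3 against control and 17 for stage 2 against control. The shares of all tested genes were 16.3 and 5.99%. The causes were not tested. The last 2 settings also left fewer members to be called. Only the libraries compared left 97, 93, 93, 99 and 95 members in the comparisons given for it, in that order.

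A replicate block in the model gave 24, 0, 5, 7, 40, 11, 0, 62 and 33 calls over the 9 comparisons, in that order. The shares of all tested genes called were 46.7, 0, 0.534, 4.3, 13.4, 17.3, 0.229, 14.4 and 7.09%. Over all tested genes, the correlation of the deviations of same-numbered libraries averaged 0.0518 over 15 pairs of stages (range -0.0897 to 0.25). Whether same-numbered libraries share more than a number, such as a batch, was not tested. DESeq2 size factors gave counts within 1.5 times the reported ones in all 9 comparisons.

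Membership was 90 of 100 with TMM library sizes, 95 and 78 with pseudocounts of 0.5 and 5, 69 with a control minimum of 1 CPM and 53 with 20 CPM. Without replicate 1 or 2, or with 1 control library, it ranged from 41 to 70. Median stage 3 position ran from 0.80 to 0.84 under other pseudocounts and scaling, and from 0.74 to 1.04 with 1 stage 3 library. Of the 6 genes named for stage 5 against control, no direction reversed. At low counts depth limits the members: 47 had a control mean under 20 CPM, and 12 were at 0 in at least 1 library.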
